A study of Mus musculus with 6 samples.

Results

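The 36 genes described here encode the transporters, enzymes and regulators that carry glucose and fructose through glycolysis, gluconeogenesis and glycogen in the liver, together with Mlxipl, which encodes the glucose-responsive transcription factor ChREBP. They were taken by gene symbol and not by a cutoff on measured values, but the list was chosen with earlier results of these data known. All 36 were found among the 17460 symbols of the table and among the 17297 genes that were tested. Expression was compared in whole liver between 3 control and 3 Blnc1 LKO mice. Blnc1 is a long noncoding RNA that the study examined as a regulator of hepatic lipogenesis, and LKO stands for liver-specific knockout. Both groups were C57BL/6 mice aged 9 months that had been fed a NASH diet, which contains fructose, trans fats and cholesterol and leads to steatohepatitis, for 24 weeks. By the study's methods the Blnc1 LKO mice were Cas9 transgenic animals that received an adenovirus carrying a pair of single-guide RNAs against Blnc1, and its controls, as described for its high-fat diet cohort, were Cas9 transgenic animals that received a GFP adenovirus, so that constitutive Cas9 and a virus were shared by both groups. Adenovirus reaches mainly hepatocytes and transduces nonparenchymal cells poorly, so the cells that are not hepatocytes in these livers would largely retain Blnc1. The table lists no gene named Blnc1, and its loss was not measured here.

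In the fed state the liver takes up glucose through GLUT2, phosphorylates it, and sends it to glycogen or through phosphofructokinase and pyruvate kinase to pyruvate, the carbon source of lipogenesis. During fasting the direction turns: pyruvate carboxylase, PEPCK, fructose bisphosphatase and glucose-6-phosphatase make glucose that is released into the blood. Several steps are carried by a form typical of hepatocytes and by forms typical of other cells, so that whole-liver mRNA for one reaction can be a mixture of cell types. Fructose bypasses phosphofructokinase through ketohexokinase, and ChREBP raises transcription of glycolytic and lipogenic genes when sugar supply is high.

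The values are normalized read counts, in which the reads of each gene were scaled by a factor for the library, from libraries of 65384969 to 89350181 reads. The comparison used limma on log2(value + 1). Fold changes are Blnc1 LKO over control on that scale and come out too small for genes of low value. An exact permutation test of 3 livers against 3 cannot give a p below 0.1. An adjusted p under 0.05 was reached by 1 of the 17297 genes (0.00578%) in limma, by 2 (0.0116%) in edgeR and by 84 of 15617 (0.538%) in DESeq2. Hepatocyte markers were abundant in every liver, with summed values of 5504800.0 to 6079540.0 in control and 5396480.0 to 6519840.0 in Blnc1 LKO livers. Of the defining periportal markers, Ass1 was listed at 4.76 to 12.1 in the 6 livers, against 86620.5 to 145254 for Cps1. The reason for the low Ass1 values was not tested. Of 7 periportal markers outside the members, 3 had a higher and 4 a lower mean in Blnc1 LKO livers (median log2 fold change −0.21), and the groups overlapped for each. All 8 pericentral markers had a higher mean in Blnc1 LKO livers (median log2 fold change 0.26). Their summed values were 663261 to 712986 in control and 744481 to 1013840.0 in Blnc1 LKO livers, with the highest in Blnc1 LKO 1. Cyp2e1 made up most of these sums, with 469700 to 516727 in control and 552886 to 744646 in Blnc1 LKO livers. The groups overlapped for Glul, Oat, Lgr5, Axin2 and Slc1a2, but not for Cyp2e1, Cyp1a2 and Rhbg.

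No member passed an adjusted p under 0.05. The smallest adjusted p of any member was 0.619 in limma, and edgeR and DESeq2 on the recovered reads also called 0 of 36. At an unadjusted p under 0.05, Pfkm and Aldoc were higher in Blnc1 LKO livers (2 of 36, against 2.94% of all genes), and Pfkl and Ppp1r3b were lower (2 of 36, against 2.74% of all genes). Without Blnc1 LKO 2 the counts were 3 higher and 6 lower. The shares of all genes were larger there as well, at 5.23% higher and 5.44% lower. Without Blnc1 LKO 1, 3 members were higher and 2 lower, against 2.71% and 2.98% of all genes. With any control liver or Blnc1 LKO 3 left out, 1 member was higher, where the shares of all genes were 2.08, 2.53 and 1.98% without control 1, 2 and 3 and 2.64% without Blnc1 LKO 3. The 3 Blnc1 LKO values lay above the 3 control values for 1 member, Pfkm, where 5.35% of all genes did so. They lay below them for 5 members, Pfkl, Pkm, Fbp1, Pcx and Ppp1r3b, or 13.9%, where 5.28% of all genes did so. For the other 30 members the groups overlapped. The mean was lower in Blnc1 LKO livers for 25 members and higher for 11, and the median log2 fold change was −0.067. Over all genes tested, 50.4% were lower and the median was −0.00099. Averaged over the 36 members, log2(value + 1) relative to the control mean was 0.027, 0.042 and −0.069 in control 1, 2 and 3. It was −0.11, −0.077 and 0.0026 in Blnc1 LKO 1, 2 and 3, so that the groups overlapped. In whole liver, fewer cells of a type and less RNA per cell cannot be told apart.

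The 95% interval of the fold change lay within a 1.5-fold change in either direction for 31 members. It reached further for Hk2, Eno1, G6pc, Ppp1r3b and Ppp1r3c. The half-width of the interval was 0.13 on the log2 scale at its narrowest (Pgam1), 0.18 at the median and 0.71 at its widest (G6pc). Of the 36 members, 35 had more than 100 reads in every liver, and Eno1 had as few as 34. The coefficient of variation was larger among Blnc1 LKO than among control livers for 27 of 36 members, with medians of 8.77% and 4.54%. The same comparison was not made over all genes, so the larger spread may not be particular to the members.

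**Figure D1:**
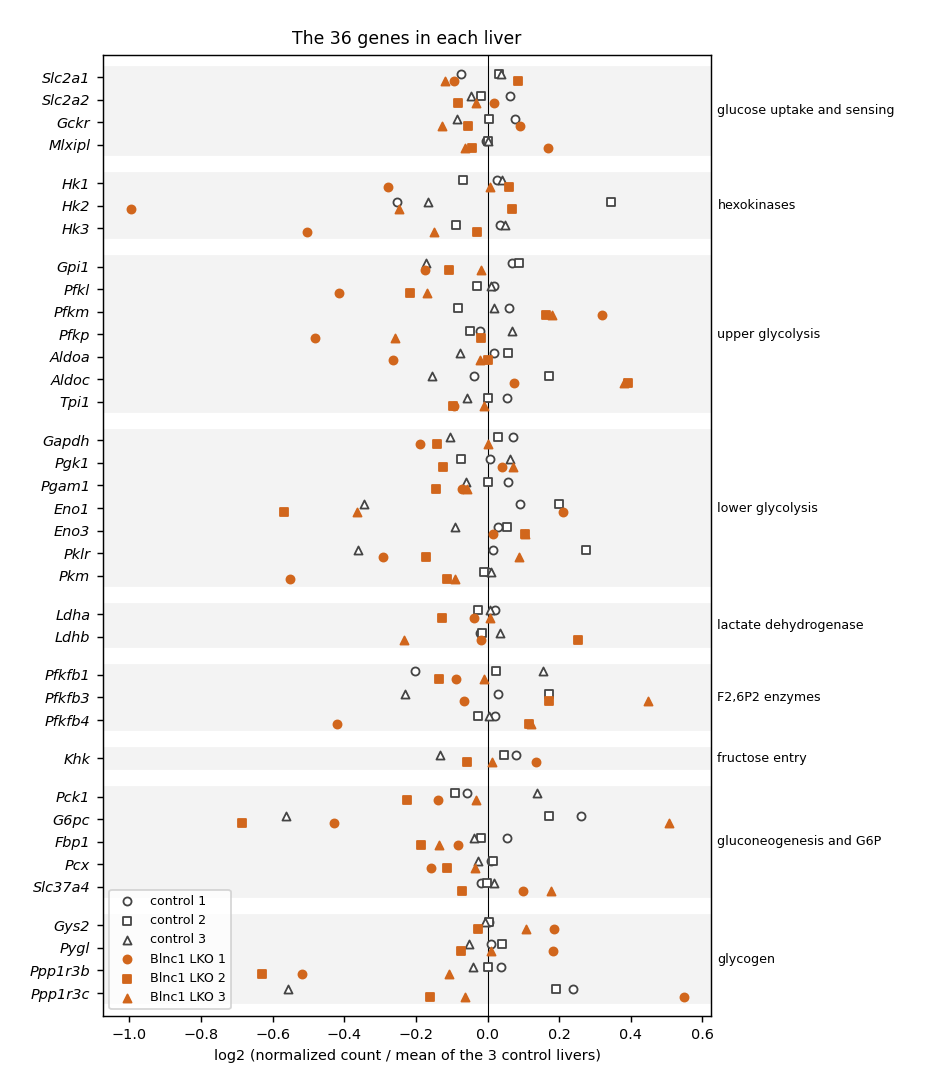
Normalized count of each of the 36 genes in each of the 6 livers, as log2 of the ratio to the mean of the 3 control livers (horizontal axis), with genes grouped by role. Open symbols are control livers and filled symbols Blnc1 LKO livers. For Pfkl, Pkm, Fbp1, Pcx and Ppp1r3b all filled symbols lie to the left of the open ones, and for Pfkm to the right.

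**Figure D2:**
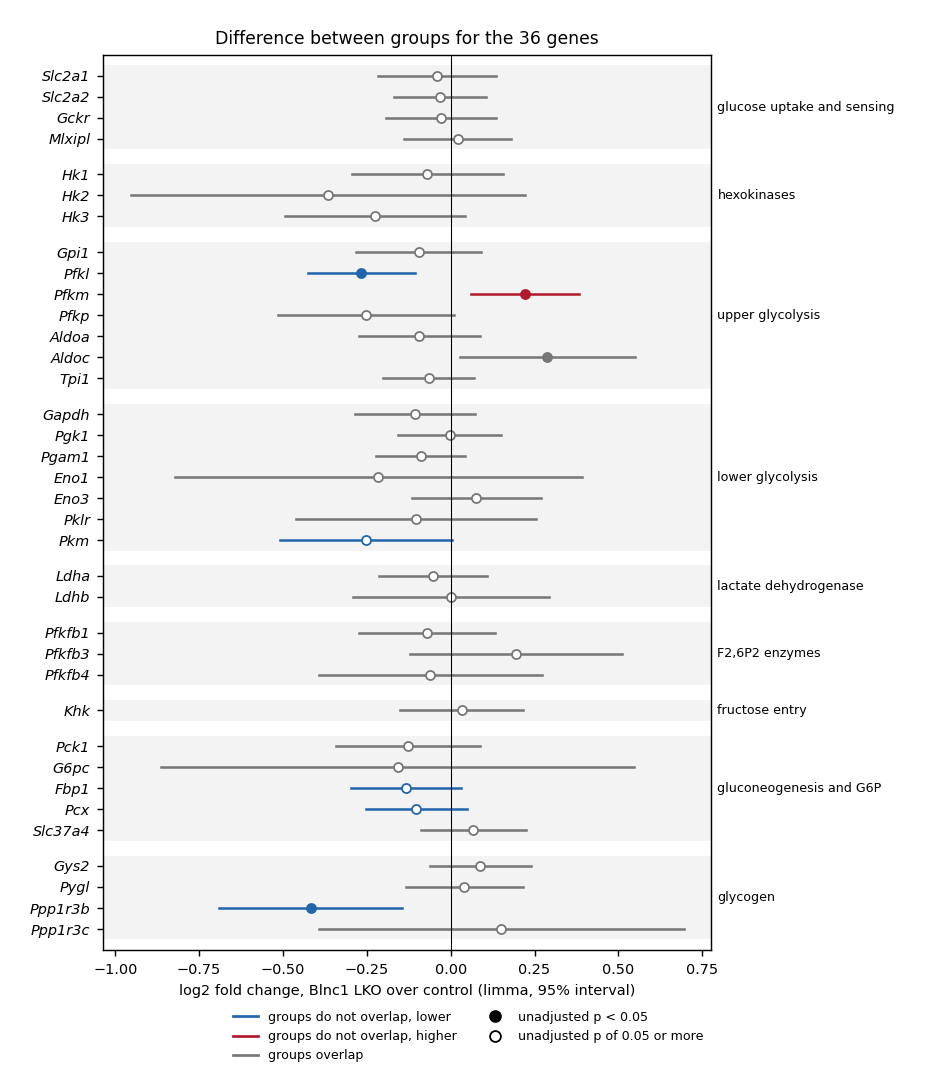
Log2 fold change of each member, Blnc1 LKO over control (horizontal axis), with its 95% interval from limma. Color marks whether the 3 values of each group overlap, and filled points have an unadjusted p under 0.05. The intervals of Pfkl, Pfkm, Aldoc and Ppp1r3b do not reach 0, and those of Hk2, Eno1, G6pc and Ppp1r3c are the widest.

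Divided by transcript length, the levels in control livers spanned a wide range. Fbp1 was highest at 57120.0 normalized counts per kilobase (kb) of transcript, followed by Ldha at 42117, Pck1 at 40528 and Gapdh at 33204. Khk, the ketohexokinase that starts fructose metabolism, stood at 21312 per kb, above every glycolytic kinase. Among the forms typical of hepatocytes, Pklr had 11312 and Slc2a2 5247 per kb. The phosphofructokinases were lower, with 1260.2 for Pfkl, 459 for Pfkm and 198 for Pfkp. Hexokinases 1 to 3 had 228, 208 and 376 per kb. The lowest member was Eno1 at 23.3 per kb, and 72.2% of the 50-base words of its transcript also occur in other annotated genes, mostly Eno1b, so its reads may be divided between listed genes. The same share was 82.5% for Gapdh, 68.0% for Pgk1, 41.5% for Pgam1, 34.4% for Pkm, 27.0% for Ldhb and 25.3% for Gpi1, mostly through pseudogenes, and the values of these genes are uncertain to that extent.

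Genes of glucose uptake and sensing differed little between the groups. Slc2a2, which encodes the hepatocyte glucose transporter GLUT2, had 30520.4, 28858 and 28290.1 in control livers against 29582, 27590.1 and 28564 in Blnc1 LKO livers. Mlxipl had 15199, 15258 and 15235 in the controls and 17119, 14780.2 and 14580.5 in the Blnc1 LKO livers. Gckr, which encodes a nuclear regulatory protein of hepatic glucose phosphorylation, had 14408, 13695 and 12894 in control livers against 14552, 13161 and 12502 in Blnc1 LKO livers. The groups overlapped for each of these genes, and Blnc1 LKO 1 had the highest Mlxipl and Gckr values of the 6 livers. The log2 fold changes were −0.032 (95% interval −0.17 to 0.11) for Slc2a2, 0.021 (95% interval −0.14 to 0.18) for Mlxipl and −0.029 (95% interval −0.19 to 0.13) for Gckr. Slc2a1, which encodes the GLUT1 transporter of many other cell types, had a log2 fold change of −0.041 (95% interval −0.22 to 0.14).

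The 3 hexokinases, which phosphorylate glucose with high affinity and are low in hepatocytes, all had lower means in Blnc1 LKO livers, and none passed the test. Hk2 had 965, 1458 and 1024 in the controls and 576, 1205 and 968 in the Blnc1 LKO livers. Blnc1 LKO 1 was the lowest of the 6 livers, control 2 was the highest, and the groups overlapped. The log2 fold change of Hk2 was −0.37 (95% interval −0.95 to 0.22), and it was −0.064 without Blnc1 LKO 1. Hk3, a form of blood cells, had a log2 fold change of −0.23 (95% interval −0.49 to 0.042), or −0.087 without Blnc1 LKO 1, and Hk1 had −0.069 (95% interval −0.29 to 0.16), or 0.035. Blnc1 LKO 1 was the lowest liver for all 3 genes. Of 12 macrophage markers, 5 were also lowest in Blnc1 LKO 1 (Cd68, Ccr2, Cx3cr1, Gpnmb and Trem2), and 3 were highest in that liver (Clec4f, Marco and Timd4). Averaged over the 12 markers, log2(value + 1) relative to the control mean was 0.42, 0.20 and 0.49 in Blnc1 LKO 1, 2 and 3. In the controls it was −0.019, 0.13 and −0.11. These averages rest in large part on Marco, which had the largest log2 fold change of the list (3.03). Marco had 32.6, 87.4 and 23.4 in control livers against 794, 95.8 and 509 in Blnc1 LKO livers. The median log2 fold change over the 12 markers was 0.069. Cd68 had 4022, 3955 and 3947 in control livers against 2968, 3999.7 and 3999 in Blnc1 LKO livers. Across the macrophage list, the Blnc1 LKO mean was above that of control for 7 markers and below it for 5, none was at 0, and the summed values were 63934 to 72455 in control and 68180.2 to 77345 in Blnc1 LKO livers. Their part in the hexokinase values was not tested.

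The step with the clearest separation of groups was phosphofructokinase, which commits fructose 6-phosphate to glycolysis. Pfkl, the liver form, had 4764, 4602 and 4735 in the controls and 3524, 4043 and 4182 in the Blnc1 LKO livers. All 3 Blnc1 LKO livers lay below all 3 control livers, and Blnc1 LKO 1 was the lowest. The means were 4700.4 ± 86.2 and 3916 ± 347 (SD, n = 3 each), and the log2 fold change was −0.27 (standard error 0.070, unadjusted p = 0.00455, adjusted p = 0.619, limma). The unadjusted p stayed under 0.05 with each liver left out in turn, with log2 fold changes from −0.32 to −0.19. Pfkm, the muscle form, had higher values in Blnc1 LKO livers, with 1376, 1246 and 1338 in control livers against 1648, 1477 and 1495 in Blnc1 LKO livers. All 3 Blnc1 LKO livers lay above all 3 control livers, and Blnc1 LKO 1 was the highest. The log2 fold change of Pfkm was 0.22 (standard error 0.071, unadjusted p = 0.0129, adjusted p = 0.787, limma), and the unadjusted p was 0.0618 without control 2. Pfkp, the platelet form, had 810.2, 795 and 862 in the controls and 589, 812 and 688 in the Blnc1 LKO livers. Blnc1 LKO 1 was again the lowest, Blnc1 LKO 2 lay among the control livers, and the log2 fold change was −0.25 (95% interval −0.51 to 0.011). Of 6 skeletal muscle markers, Acta1, Myh4, Tnnt3 and Mylpf were listed. Myh4 was at 0 in Blnc1 LKO 3, no other value was at 0, and their summed values were 41.5 to 58.7 in control and 62.7 to 78.5 in Blnc1 LKO livers, higher without overlap. Mylpf made up most of these sums, with 34.1 to 46.6 in control and 49.3 to 65.5 in Blnc1 LKO livers. The groups overlapped for Acta1, Myh4 and Tnnt3, at values of 0 to 12.2. The part of the muscle markers in the Pfkm values was not tested.

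Per transcript length, Pfkl made up 65.5, 66.4 and 65.4% of the phosphofructokinase mRNA in control livers, against 56.9, 60.5 and 62.1% in Blnc1 LKO livers. The share of Pfkm was 24.5, 23.3 and 23.9% in control and 34.5, 28.6 and 28.7% in Blnc1 LKO livers. The groups did not overlap for either share, with Blnc1 LKO 1 the farthest from control. They overlapped for Pfkp, which made up 8.56 to 10.9% in the 6 livers. A part of the Pfkp transcript, 17.1% of its 50-base words, also occurs in the gene Pitrm1. The summed phosphofructokinase mRNA was 1951, 1859 and 1942 normalized counts per kb in control and 1659, 1793 and 1806 in Blnc1 LKO livers, all 3 below the lowest control liver. No test was made on these shares, since they rest on the same values as the fits of the single genes.

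**Figure D3:**
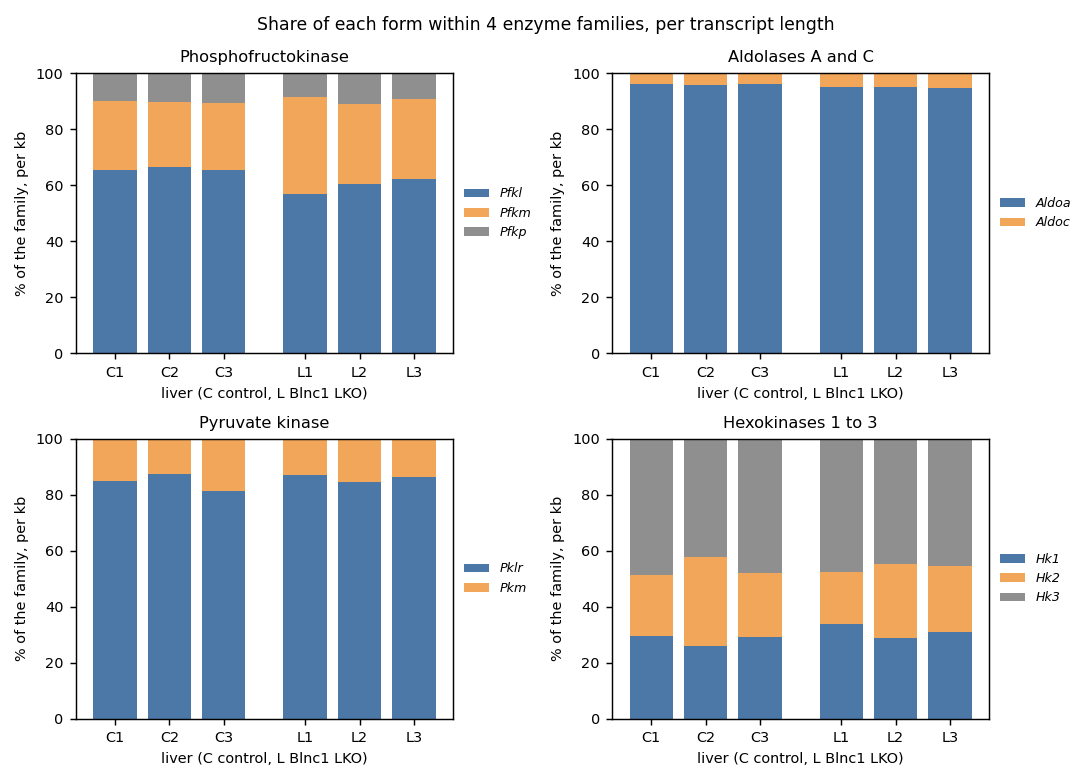
Share of each form in the summed mRNA of the forms shown, per kb of transcript, in percent (vertical axis). Control livers are C1 to C3 and Blnc1 LKO livers L1 to L3. For the aldolases and hexokinases the sum covers only the members shown and not every form of the enzyme. Pfkl takes less of the phosphofructokinase mRNA and Pfkm more in every Blnc1 LKO liver, while the shares of Pklr and Pkm and of the hexokinases overlap between groups.

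The start regions of these genes differ in base composition. RefSeq promoter windows on GRCm38.p6, from 250 bases before to 50 bases after each annotated start, were found for 34 of the 36 members, and Gys2 and Ppp1r3b were not matched. They are shown for Pfkl and Pfkm because these forms of the same enzyme had opposite signs, and capitals mark GC boxes (GGGCGG, searched on both strands), of which the Pfkl window holds 3, with 2 of them overlapping by 1 base. Windows are given for 1 start of Pfkl (chr10:78009758-78010057, − strand) and for 2 of the 4 starts of Pfkm (chr15:98108306-98108605, + strand, and chr15:98111810-98112109, + strand), each read 5′ to 3′ on the strand of the gene.
Pfkl: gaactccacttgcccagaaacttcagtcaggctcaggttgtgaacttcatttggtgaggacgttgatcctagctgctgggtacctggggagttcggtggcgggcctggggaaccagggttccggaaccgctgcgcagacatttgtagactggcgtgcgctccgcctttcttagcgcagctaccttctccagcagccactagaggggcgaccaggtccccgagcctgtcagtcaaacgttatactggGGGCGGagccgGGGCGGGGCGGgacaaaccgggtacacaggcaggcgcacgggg
Pfkm, first window: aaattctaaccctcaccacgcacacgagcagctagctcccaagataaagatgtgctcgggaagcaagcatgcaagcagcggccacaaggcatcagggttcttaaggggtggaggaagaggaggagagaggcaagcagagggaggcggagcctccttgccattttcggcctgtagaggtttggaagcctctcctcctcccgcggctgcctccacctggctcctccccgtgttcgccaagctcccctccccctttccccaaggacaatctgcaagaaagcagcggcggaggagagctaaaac
Pfkm, second window: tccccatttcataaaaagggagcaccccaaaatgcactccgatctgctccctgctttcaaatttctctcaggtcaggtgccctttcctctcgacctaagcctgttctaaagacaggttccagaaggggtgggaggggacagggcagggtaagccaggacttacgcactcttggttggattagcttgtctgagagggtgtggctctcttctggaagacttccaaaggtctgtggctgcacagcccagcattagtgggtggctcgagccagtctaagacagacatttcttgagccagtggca
The Pfkl window has a GC content of 62.3%, and the Pfkm windows shown have 59.0% and 53.0%, against a median of 52.7% over all 32851 windows. A GC box is found in 35.7% of all windows, in 27 of the 54 windows of the members and in none of the 4 windows of Pfkm. The match is a description of these letters and carries no statement on the factors that bind there.

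Among the other genes of upper glycolysis, Aldoc, the brain form of aldolase, had 854, 989 and 788 in control livers against 922, 1150.0 and 1143 in Blnc1 LKO livers. Blnc1 LKO 2 and 3 lay above every control liver, and Blnc1 LKO 1 lay below control 2, so that the groups overlapped. The log2 fold change of Aldoc was 0.29 (standard error 0.11, unadjusted p = 0.0343, adjusted p = 0.851, limma). The unadjusted p was 0.0853 without control 1, 0.123 without control 3, 0.109 without Blnc1 LKO 2 and 0.107 without Blnc1 LKO 3, and it was 0.0825 with library size as the only scaling. Aldoa, the muscle form that most cells share, had a log2 fold change of −0.094 (95% interval −0.27 to 0.087). Relative to the sum of Aldoa and Aldoc per transcript length, Aldoc made up 3.78, 4.23 and 3.73% in control and 4.90, 5.07 and 5.12% in Blnc1 LKO livers, without overlap. Gpi1, glucose-6-phosphate isomerase, had −0.095 (95% interval −0.28 to 0.091), and Tpi1, triosephosphate isomerase, had −0.065 (95% interval −0.20 to 0.070).

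**Figure D4:**
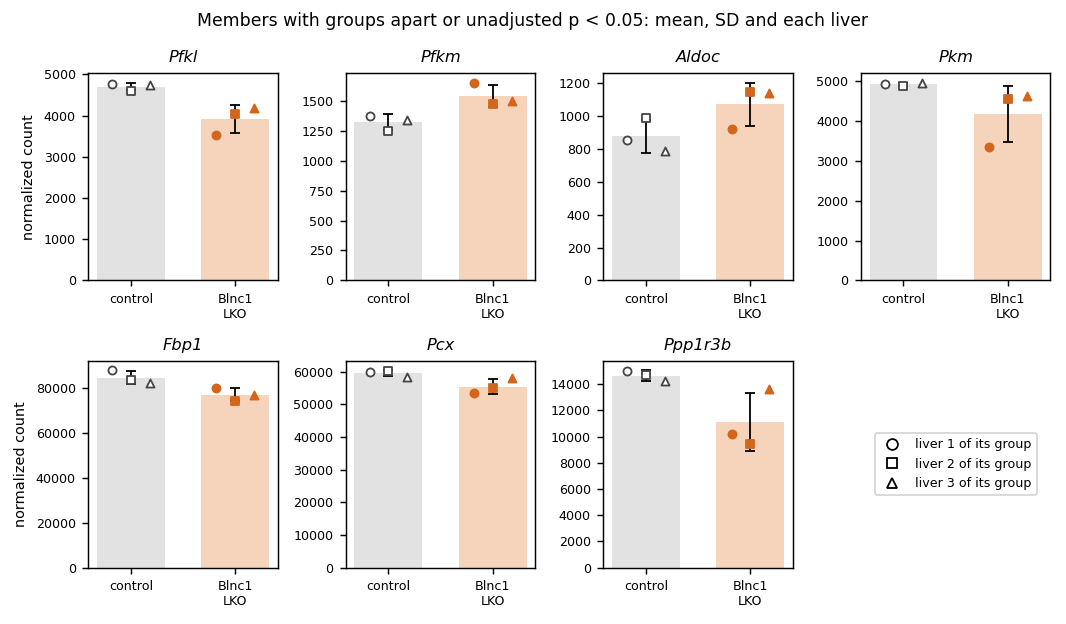
Normalized counts (vertical axes from 0) of the 6 members whose groups do not overlap, and of Aldoc, in control and Blnc1 LKO livers. Bars are means, error bars are SDs (n = 3 livers) and symbols are single livers. Blnc1 LKO 1 lies far below the other livers for Pkm, and Blnc1 LKO 3 lies close to the control livers for Ppp1r3b and Pcx.

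In lower glycolysis, the Blnc1 LKO mean lay below the control mean for 6 of 7 members, and none passed the test. Pklr, which encodes the pyruvate kinase of hepatocytes, had 33201, 39712 and 25568 in the controls and 26836, 29117 and 34884 in the Blnc1 LKO livers. Control 2 was the highest and control 3 the lowest of the 6 livers, so that the control group spanned all Blnc1 LKO values, and the log2 fold change was −0.10 (95% interval −0.46 to 0.26). Pkm, the pyruvate kinase of most other cells, had 4919, 4887 and 4951 in control livers against 3357, 4545 and 4615 in Blnc1 LKO livers. The control livers lay within a narrow range, all Blnc1 LKO livers lay below it, and Blnc1 LKO 1 was far below the rest. The log2 fold change of Pkm was −0.25 (standard error 0.11, unadjusted p = 0.0527, adjusted p = 0.879, limma), and it was −0.10 without Blnc1 LKO 1. The share of Pklr in the pyruvate kinase mRNA per transcript length was 85.0, 87.2 and 81.2% in control and 87.0, 84.3 and 86.4% in Blnc1 LKO livers, with overlap. A part of the Pklr transcript, 23.2% of its 50-base words, also belongs to the overlapping gene Hcn3.

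For the remaining genes of lower glycolysis the groups overlapped and the 95% intervals included 0. The log2 fold changes were −0.11 (95% interval −0.29 to 0.071) for Gapdh, glyceraldehyde-3-phosphate dehydrogenase, −0.0029 (95% interval −0.16 to 0.15) for Pgk1, phosphoglycerate kinase, and −0.089 (95% interval −0.22 to 0.043) for Pgam1, phosphoglycerate mutase. Eno1, the enolase of most tissues, had −0.22 (95% interval −0.82 to 0.39), and Eno3, the muscle enolase, had 0.076 (95% interval −0.11 to 0.27). Ldha and Ldhb encode the subunits of lactate dehydrogenase, which interconverts pyruvate and lactate. Their log2 fold changes were −0.052 (95% interval −0.21 to 0.11) and 0.00010 (95% interval −0.29 to 0.29), and Ldha made up at least 99.1% of their summed mRNA per transcript length in every liver.

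The hepatic start of Pklr is shown because it is the one member window that holds a carbohydrate response element, the paired motif bound by ChREBP, searched as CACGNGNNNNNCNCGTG on both strands. It starts at position −170 from the start and is in capitals in the window at chr3:89136373-89136672, + strand. The window does not hold the E-box CACGTG itself.
Pklr: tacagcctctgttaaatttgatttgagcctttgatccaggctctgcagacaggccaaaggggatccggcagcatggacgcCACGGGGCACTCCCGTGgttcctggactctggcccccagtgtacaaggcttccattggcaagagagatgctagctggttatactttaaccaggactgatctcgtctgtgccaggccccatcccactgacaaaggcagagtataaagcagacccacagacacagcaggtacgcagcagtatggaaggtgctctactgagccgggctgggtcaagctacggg
The motif is found in 15 of 32851 windows (0.0457%). The E-box is found in 7.15% of all windows and in 7 of the 54 windows of the members, 1 each of Khk, Ldha, Mlxipl, Pcx, Pfkfb3, Pfkm and Ppp1r3c.

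The bifunctional enzymes that set the allosteric activator of phosphofructokinase had no common direction. Pfkfb1, the liver form, had 2852, 3335 and 3654 in the controls and 3085, 2988 and 3258 in the Blnc1 LKO livers. Pfkfb3, an inducible form with high kinase activity, had 2754, 3039.5 and 2298 in control livers against 2575, 3039 and 3681 in Blnc1 LKO livers. The groups overlapped for both genes, with the highest Pfkfb3 value in Blnc1 LKO 3 and the lowest in control 3. The log2 fold changes were −0.070 (95% interval −0.27 to 0.13) for Pfkfb1, 0.19 (95% interval −0.12 to 0.51) for Pfkfb3 and −0.061 (95% interval −0.39 to 0.27) for Pfkfb4, another inducible form. That of Pfkfb4 was 0.12 without Blnc1 LKO 1, its lowest liver. Khk, through which the fructose of the diet enters metabolism, had 35629, 34837 and 30744 in the controls and 37079, 32394 and 34025 in the Blnc1 LKO livers. Blnc1 LKO 1 was the highest and control 3 the lowest of the 6 livers, the other livers overlapped, and the log2 fold change was 0.033 (95% interval −0.15 to 0.22).

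Of the 5 genes of gluconeogenesis and glucose-6-phosphate hydrolysis, 4 had lower means in Blnc1 LKO livers, and the groups did not overlap for Fbp1 and Pcx. Fbp1, fructose bisphosphatase, had 87732, 83432 and 82278 in control livers against 79799, 74289.8 and 76896 in Blnc1 LKO livers. Pcx, pyruvate carboxylase, had 59907, 60036 and 58398 in the controls and 53308, 54927 and 58019 in the Blnc1 LKO livers. For both genes the lowest control liver lay above the highest Blnc1 LKO liver. The log2 fold changes were −0.13 (standard error 0.072, unadjusted p = 0.0984, adjusted p = 0.927, limma) for Fbp1 and −0.10 (standard error 0.066, unadjusted p = 0.158) for Pcx, and the Blnc1 LKO mean was 0.911 and 0.932 times that of control. Pck1, which encodes cytosolic PEPCK, had 103714, 101216 and 118601 in control livers against 97987, 92342 and 105557 in Blnc1 LKO livers. Blnc1 LKO 3 lay among the control livers, and the log2 fold change was −0.13 (95% interval −0.34 to 0.088). G6pc, the catalytic subunit of glucose-6-phosphatase, had 26233, 24649.7 and 14829.9 in the controls and 16272, 13631 and 31121 in the Blnc1 LKO livers. It was the most variable member of this group: control 3 lay near the lower Blnc1 LKO livers and Blnc1 LKO 3 was the highest of all. Its log2 fold change was −0.16 (95% interval −0.86 to 0.55), and it ranged from −0.51 to 0.083 when single livers were left out, turning its sign without Blnc1 LKO 2. Slc37a4, which carries glucose 6-phosphate to that enzyme, had 11680.4, 11822 and 11992 in control livers against 12667, 11252 and 13372 in Blnc1 LKO livers, with overlap and a log2 fold change of 0.068 (95% interval −0.090 to 0.22).

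The window of Pck1 is shown with the variant cAMP response element TTACGTCA, searched on both strands, in capitals at position −93 (chr2:173152823-173153122, + strand). Among the members this motif is found in the window of Pck1 alone, and among all windows in 0.499%.
Pck1: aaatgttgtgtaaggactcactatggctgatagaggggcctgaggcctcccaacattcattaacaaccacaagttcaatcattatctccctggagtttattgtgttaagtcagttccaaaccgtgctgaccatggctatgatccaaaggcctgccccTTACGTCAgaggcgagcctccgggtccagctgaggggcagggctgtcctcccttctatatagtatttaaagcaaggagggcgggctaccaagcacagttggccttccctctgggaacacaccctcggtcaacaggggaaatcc

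Of the 4 glycogen genes, the Blnc1 LKO mean was below the control mean for 1 and above it for 3. Ppp1r3b, which encodes the hepatic subunit that brings protein phosphatase 1 to glycogen and so favors its synthesis, had 15045, 14685 and 14265 in the controls and 10236, 9475 and 13625 in the Blnc1 LKO livers. All Blnc1 LKO livers lay below all control livers, Blnc1 LKO 2 was the lowest, and Blnc1 LKO 3 lay close to control 3. The means were 14665 ± 390.3 and 11112 ± 2209 (SD, n = 3 each), and the fitted log2 fold change was −0.42 (standard error 0.12, unadjusted p = 0.00736, adjusted p = 0.714, limma). This was the largest difference of the 36 genes, and its unadjusted p stayed under 0.05 with each liver left out in turn, with log2 fold changes from −0.57 to −0.31. Ppp1r3c, a related targeting subunit found in many tissues, had 1919, 1858 and 1106 in control livers against 2379, 1455 and 1557 in Blnc1 LKO livers. Control 3 was its lowest liver and Blnc1 LKO 1 its highest, and the log2 fold change was 0.15 (95% interval −0.39 to 0.69). Gys2, the glycogen synthase of liver, had 21461, 21465 and 21282 in the controls and 24337, 21017 and 23055 in the Blnc1 LKO livers. Pygl, the liver phosphorylase that degrades glycogen, had 32848, 33538 and 31446 in control livers against 36996, 31009 and 32819 in Blnc1 LKO livers. Blnc1 LKO 1 was the highest and Blnc1 LKO 2 the lowest liver for both enzymes, and the log2 fold changes were 0.089 (95% interval −0.060 to 0.24) for Gys2 and 0.040 (95% interval −0.13 to 0.21) for Pygl.

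The genomic positions, on GRCm38 from GENCODE M21, are chromosome 10, 77986947 to 78010083, on the − strand for Pfkl, chromosome 15, 98092589 to 98132451, on the + strand for Pfkm and chromosome 11, 78322968 to 78327781, on the + strand for Aldoc. Ppp1r3b lies on chromosome 8, 35375739 to 35388139, on the + strand. Pkm lies on chromosome 9, 59656368 to 59679375, on the + strand, Fbp1 on chromosome 13, 62864753 to 62888282, on the − strand and Pcx on chromosome 19, 4510472 to 4621752, on the + strand. The values are sums of reads over each gene, so that splice forms such as those of Pkm are not told apart.

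The liver with the lowest values differed between roles. Blnc1 LKO 1 was the lowest for all 3 hexokinases, and Blnc1 LKO 2 was the lowest for 4 of the 5 genes of gluconeogenesis and glucose-6-phosphate hydrolysis and for 3 of the 4 glycogen genes. Averaged over the 3 hexokinases, log2(value + 1) relative to the control mean was −0.58, 0.042 and −0.12 in Blnc1 LKO 1, 2 and 3. Over the 5 genes of gluconeogenesis and glucose-6-phosphate hydrolysis it was −0.13, −0.25 and 0.11, and over the 4 glycogen genes 0.11, −0.21 and −0.0023. The control livers had −0.054, 0.071 and −0.017 for the hexokinases, 0.060, 0.024 and −0.084 for gluconeogenesis and 0.083, 0.070 and −0.15 for glycogen. The groups overlapped in each of these averages. Of the 36 members, 13 were lowest of the 6 livers in Blnc1 LKO 2, 11 in Blnc1 LKO 1, 6 in control 3 and 4 in Blnc1 LKO 3. Of 13 forms not enriched in hepatocytes, 7 were lowest in Blnc1 LKO 1 and 0 in Blnc1 LKO 2. Of 11 liver-enriched forms, 1 was lowest in Blnc1 LKO 1 and 6 in Blnc1 LKO 2. The median log2 fold change was −0.061 over the 13 forms and −0.070 over the 11. How often each liver was the lowest over all genes was not counted, so the counts of lowest livers may not be particular to these genes. The summed values of stellate cell markers were 97398 to 106697 in control and 82638 to 97833 in Blnc1 LKO livers, with 3 of 8 (Col1a1, Col3a1 and Acta2) lower without overlap. Those of endothelial markers were 26205 to 28024 in control and 25391 to 26502 in Blnc1 LKO livers, with 2 of 8 (Pecam1 and Cdh5) lower without overlap. No marker of either list was at 0. Their part in the values of the members was not tested.

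**Figure D5:**
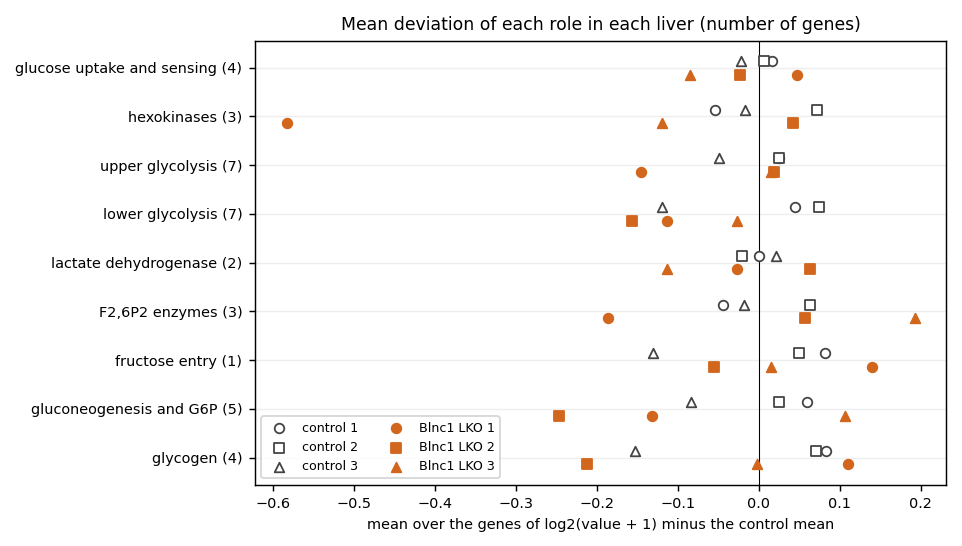
Mean over the genes of each role of log2(value + 1) minus the mean of the control livers (horizontal axis), for each liver, with the number of genes in parentheses. The label F2,6P2 stands for Pfkfb1, Pfkfb3 and Pfkfb4, and G6P is glucose 6-phosphate. Blnc1 LKO 1 lies at −0.58 for the hexokinases, and Blnc1 LKO 2 is the lowest liver for gluconeogenesis and glycogen genes.

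Of 109 other genes in the pathway lists, 106 were tested and none passed an adjusted p under 0.05. The lists cover glucose metabolism and its regulators, and also partners and targets of ChREBP, among them lipid genes such as Acly and Fasn. At an unadjusted p under 0.05, 2 of 106 were higher (1.89%, against 2.94% of all genes) and 8 were lower (7.55%, against 2.74% of all genes). Of these 8, 3 belonged to the ChREBP list. The median log2 fold change over the 106 genes was −0.023. The median farthest from 0 among these lists was that of 14 partners and targets of ChREBP outside the 36 genes, of which 10 had a lower mean and 3 an unadjusted p under 0.05, all lower, with a median of −0.18. Over all genes 50.4% had a lower mean, 2.74% were lower at that p and the median was −0.00099. In this ChREBP list 4 genes had a higher mean, Mlx, Mlxip, Me1 and Gpd1, and the groups did not overlap for 2 of the 14. The list also holds lipogenic genes such as Fasn, which the study places under the regulators LXR and SREBP1c, so its median is not particular to ChREBP. Arrdc4, an arrestin-domain gene induced by glucose, had 1178, 1221 and 1113 in the controls and 994, 956 and 879 in the Blnc1 LKO livers. The groups did not overlap, and its log2 fold change was −0.31 (standard error 0.074, unadjusted p = 0.00255, adjusted p = 0.555, limma). Acly, ATP citrate lyase, had a log2 fold change of −0.32 (95% interval −0.60 to −0.051) with overlap, and Tm6sf2, a regulator of lipoprotein secretion, had −0.24 (95% interval −0.47 to −0.016) without overlap.

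Of the 21 tested further genes of glycolysis and gluconeogenesis, 2 were lower at an unadjusted p under 0.05 and 0 were higher. Pgm1, a phosphoglucomutase gene, had 1088, 1072 and 1028 in control livers against 821, 927 and 904 in Blnc1 LKO livers. The groups did not overlap, and its log2 fold change was −0.27 (95% interval −0.43 to −0.10). Slc16a7, a monocarboxylate transporter, had −0.20 (95% interval −0.36 to −0.027). Of 12 pyruvate dehydrogenase genes, Pdhb, the E1 beta subunit, was the only one under 0.05, at −0.17 (95% interval −0.31 to −0.027). Of 8 other glucose transporters, 4 had a lower and 4 a higher mean, and 1 was lower at an unadjusted p under 0.05. This was Slc2a4, which encodes the GLUT4 transporter of muscle and fat. Slc2a4 had 265, 231 and 314 in the controls and 204, 184 and 173 in the Blnc1 LKO livers. The groups did not overlap, and its log2 fold change was −0.52 (95% interval −0.85 to −0.20). Slc2a5, the fructose transporter GLUT5 and 1 of 4 tested genes of fructose and polyol metabolism, was higher, with 670.4, 690.4 and 599.7 in control livers against 1004, 719.7 and 778 in Blnc1 LKO livers. Its groups did not overlap either, and its log2 fold change was 0.34 (95% interval 0.050 to 0.63). Of 22 other glycogen genes, Stbd1, which binds glycogen, was higher at 0.16 (95% interval 0.030 to 0.28), without overlap. Of 19 regulators of hepatic glucose output, Cebpb, a transcription factor of gluconeogenic genes, was the only one under 0.05, lower at −0.22 (95% interval −0.40 to −0.035) with overlap. None of 8 pentose phosphate genes had an unadjusted p under 0.05.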

How the data were processed

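PolyA-selected liver RNA was sequenced from 3 control and 3 Blnc1 LKO mice, with TruSeq RNA v2 libraries, a kit that does not mark strand. STAR alignment to mm10, HTSeq counting per gene and DESeq2 were used by the authors. Versions and annotation are not given in the sources used here. The deposited signal in each column is the gene's read count divided by the authors' size factor for that liver. Columns were matched to livers by genotype and number, and 0 columns were left unmapped. The replicates are separate mice.

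The filter kept genes that reached a value of 1 in 3 or more livers. They were fitted with limma 3.58.1 (R 4.3.3, lmFit and eBayes with trend) on log2(value + 1) with the group as the only term, and Benjamini-Hochberg adjustment was made over all 17297 genes at a threshold of 0.05. Reads were recovered by dividing each column by its smallest value above 0, which gave 100% whole numbers within 0.01, and were used for edgeR 4.0.16 and DESeq2 1.42.0. The fits were tested on simulated data. Transcript length is that of the longest principal coding transcript of GENCODE M21 (on GRCm38, the same assembly as mm10), and 50-base words of it were searched in all other annotated genes. Promoter windows were taken from RefSeq on GRCm38.p6. Tables and plots were made with Python 3.11.15, pandas 2.3.3, scipy 1.17.1 and matplotlib 3.10.9.

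The 36 genes, their roles, the other pathway lists and the marker lists were chosen with earlier results of these data known, so no p is given over a list. Values in every liver are given for members whose groups do not overlap, for those with an unadjusted p under 0.05 and for a set of regulated steps. Other pathway genes are named mainly at an unadjusted p under 0.05. Some genes of these pathways are not reported here. The alternatives were a pseudocount of 0.1, no filter, at least 10 reads in every liver, a replicate block, library size as the only scaling, edgeR, DESeq2 and each liver left out in turn.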

Additional observations from a re-analysis of the deposited data

How the results depend on the processing

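None of the 36 members passed an adjusted p under 0.05 in limma, edgeR or DESeq2, or in any of the 13 alternatives, where the smallest adjusted p of a member was 0.143 (Ppp1r3b, DESeq2). When single livers were left out, 1 to 3 members were higher in Blnc1 LKO at an unadjusted p under 0.05. The shares of all genes that were higher in these fits were 1.98 to 5.23%. From 2 to 6 members were lower, where 1.76 to 5.44% of all genes were lower. The lower count and its share of all genes were both at their highest without Blnc1 LKO 2. The median log2 fold change ranged from −0.10 (without Blnc1 LKO 3) to −0.053. The number of lower members was 4 in DESeq2, with Pkm and Fbp1 added (2.42% of all genes were lower there). With library size as the only scaling, 1 member was higher, Pfkm, where 2.94% of all genes were higher. Pfkl and Ppp1r3b kept an unadjusted p under 0.05 in all 13 alternatives. The sign held in all of them for 24 members and turned in at least 1 for 12, always when a single liver was left out and for Ldhb also with library size as the only scaling (−0.0021). With single livers left out, the log2 fold changes of these members ranged from −0.090 to 0.020 for Gckr, from −0.053 to 0.063 for Mlxipl, from −0.13 to 0.035 for Hk1, from −0.041 to 0.057 for Pgk1, from −0.27 to 0.047 for Pklr, from −0.13 to 0.12 for Ldhb, from −0.17 to 0.011 for Pfkfb1, from −0.15 to 0.12 for Pfkfb4, from −0.033 to 0.077 for Khk, from −0.51 to 0.083 for G6pc, from −0.031 to 0.10 for Pygl and from −0.11 to 0.29 for Ppp1r3c. The cause of these shifts was not tested.

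The labels give both groups the numbers 1 to 3, but livers of the same number did not deviate together (correlations of −0.058, −0.019 and −0.11 over genes) and no liver was closest to the one of its own number, so the number was not taken as a pairing. With it as a replicate block, 4 members were lower (Hk2 and Pkm added, against 2.67% of all genes) and 2 were higher (against 2.61%). In that fit 0 genes of the whole table passed the adjusted threshold. With 3 livers per group, differences smaller than the intervals given cannot be seen, and whole-liver values do not separate cell types.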
